A study of Mus musculus with 8 samples.

Results

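Low-density neutrophils were compared with high-density neutrophils from 2-month-old wild-type mice of the C57BL/6 laboratory strain. The members were the 4 wild-type libraries of the 8 in the series, chosen by their labels, with 2 low-density and 2 high-density libraries. Both densities carried the numbers 2 and 4. The cells were peritoneal neutrophils drawn into the cavity with casein, a milk protein, and purified into the 2 populations. The other 4 libraries came from C57BL/6 mice of the same age that lacked the histamine H2 receptor (H2R). They were 2 of low and 2 of high density, carried the numbers 1 and 2, and are called H2R-deficient after their label. Counts of Hrh2, the gene of that receptor, were lower there but not absent, at 35.0 and 17.6 CPM in their high-density and 12.1 and 7.60 CPM in their low-density libraries, against 118 and 41.3 and against 22.5 and 32.5 CPM in wild type. The sources used here do not give the deleted part of the gene, so these counts neither bear out the label nor go against it. All animals had received casein, and resting blood or marrow neutrophils form no group here. The labels do not say whether libraries came from separate animals, pools or repeat preparations, so each p-value reflects the scatter among these libraries alone, and that scatter may be technical. The sources used here do not state how the densities were separated.

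Neutrophils are short-lived phagocytes that mature in the bone marrow, where they fill granules with antimicrobial proteins, and then move through blood into inflamed tissue. On density gradients most settle with the red cells, while neutrophils of low density stay in the layer that also holds mononuclear cells (lymphocytes, monocytes and dendritic cells). Low-density fractions have been described as mixtures of immature, activated and suppressive neutrophils. In stimulated neutrophils, immediate-early genes are switched on within minutes, and NF-kB then drives the transcription of cytokines and chemokines.

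Total counts per wild-type library ranged from 19862716 to 22957352, and from 19862716 to 24199215 over all 8. Levels are given as CPM, counts normalized to library sizes that were scaled by TMM, edgeR's trimmed mean of M-values. The TMM factors were 0.777 and 0.808 for the high-density and 1.24 and 1.11 for the low-density libraries. Values are given in the order high-density library 2, high-density library 4, low-density library 2, low-density library 4. Markers of the labelled cell type were abundant in all 4. S100a8 and S100a9, which form the calprotectin of neutrophil cytosol, lay at 7372 to 14950 and at 12190 to 27250 CPM. Ly6g lay at 100.7 to 244 CPM. Genes of the primary granule, which are transcribed in early marrow precursors, were at or near 0 for 6 of 8 members, with Mpo at 0 to 0.118 CPM and Elane at 0 to 0.162 CPM, while Prtn3 and Ctsc passed the filter on low counts and did not change by the test. The first principal component of the 4 libraries separated the densities and held 68.9% of the variance. High-density library 2 lay farther from the low-density libraries, at -83.9, than high-density library 4, at -35.4, and the low-density libraries lay at 61.6 and 57.7. The second held 19% and separated the libraries numbered 2 from those numbered 4.

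Of 14909 genes tested, 1888 changed between the densities (12.7%; edgeR's quasi-likelihood test, adjusted p under 0.05). Of these, 1269 were higher in low-density cells (8.51%) and 619 were lower (4.15%). By size, 1085 of the higher and 270 of the lower genes differed by at least 2-fold, and 266 and 31 by at least 8-fold. With TMM, described above, the direction depended on abundance. Of the 100 most abundant genes, 0 were called higher and 41 lower, and of the next 900, 3 were called higher and 204 lower. Of the next 4000, 166 were called higher and 223 lower, and of the remaining 9909, 1100 higher and 151 lower. From the most to the least abundant of these tiers, the median log2 fold changes were -0.74, -0.55, -0.20 and 0.425. The 100 most abundant genes held 37.6% and 38.5% of all counts in the high-density libraries and 30.5% and 33.3% in the low-density libraries.

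**Figure D1:**
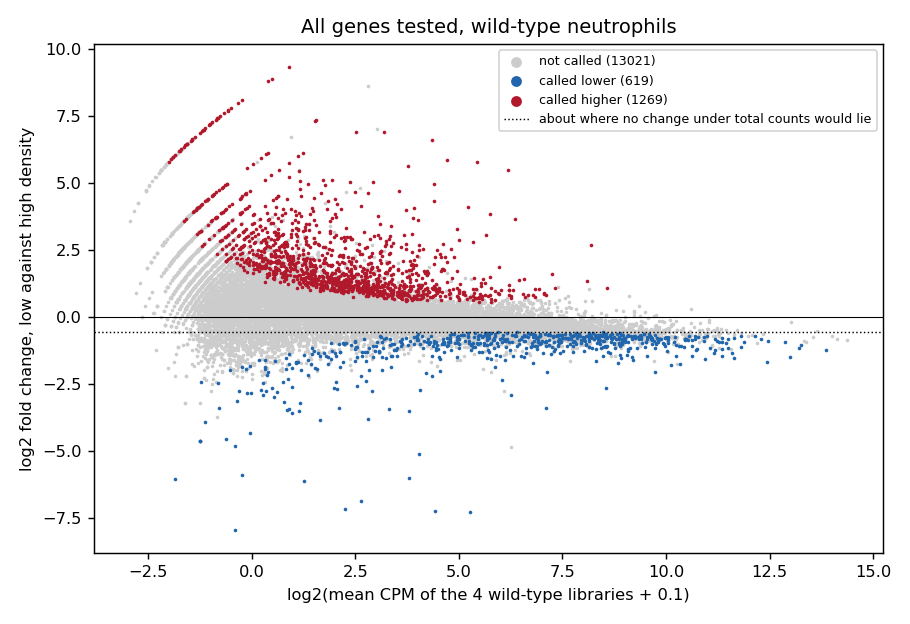
Log2 fold change of low against high density (vertical axis) against mean level over the 4 wild-type libraries (horizontal axis, log2 of CPM plus 0.1), 1 point per gene, with 1269 called higher in red and 619 called lower in blue. The blue points lie mostly at high levels and small folds, the red points mostly at low levels and large folds, and the dotted line is about the height of a gene with no change when libraries are scaled by total counts only.

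The scaling of the libraries set how many genes were called lower. The median log2 fold change of all genes was 0.10 with TMM, 0.03 with DESeq2's size factors and 0.67 with total counts only. With total counts only, 4822 genes were called higher (32.3%) and 124 lower (0.832%). All 124 were among the 619 called lower with TMM, of which they made up 20.03%. All 1269 genes called higher with TMM were also called higher with total counts, of which they made up 26.32%. Of the 100 most abundant genes, total counts only called 1 higher and 11 lower, and of the next 900, 27 higher and 22 lower. Of the next 4000 it called 1053 higher and 26 lower, and of the remaining 9909, 3741 higher and 65 lower. The medians of these tiers were then -0.17, 0.02, 0.37 and 0.99. List counts of falls are therefore given under both scalings below. A gene said to have fallen with TMM was also called lower with total counts only unless stated otherwise. Rises with total counts only are to be read beside the 32.3% of all genes called higher under that scaling. Falls and medians of lists of abundant genes are to be read beside the values of the abundant tiers. In bulk RNA, fewer cells of a type and less RNA per cell cannot be told apart.

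The calls also rested on single libraries. Leaving out high-density library 2 gave 123 calls, and leaving out low-density library 2 gave 223. Without high-density library 4 there were 1724, without low-density library 4 there were 814, and in a fit to the 4 wild-type libraries alone there were 608. All 1888 genes kept their direction in each of the 4 fits that left out 1 wild-type library. They were picked for differences among these same libraries, so this outcome was close to fixed in advance and is no separate support.

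**Figure D2:**
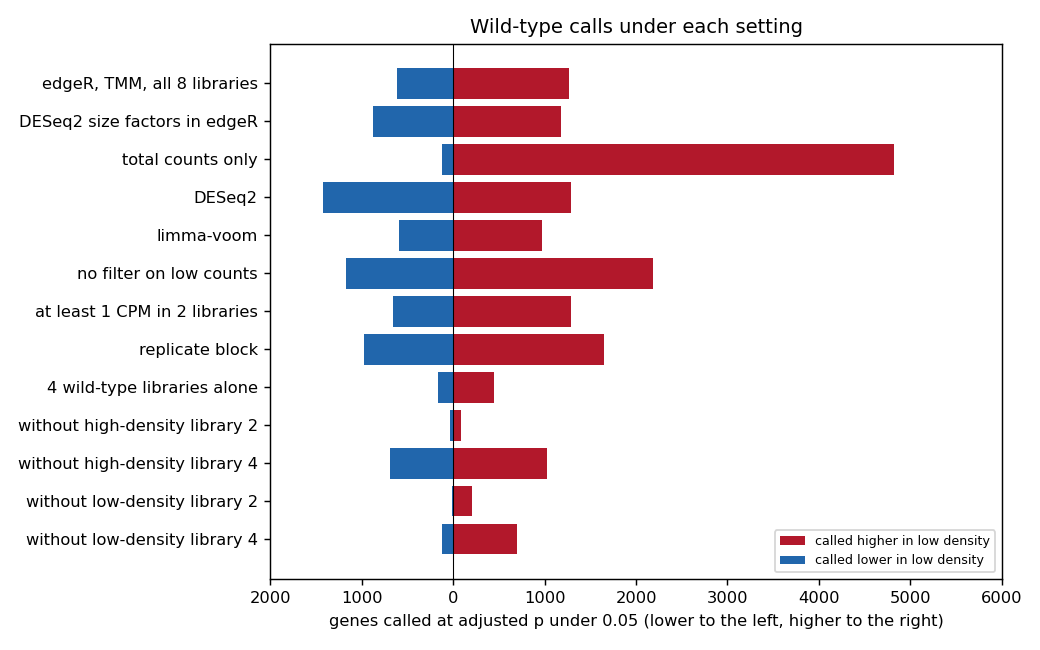
Number of genes called higher (red, to the right) and lower (blue, to the left) in low-density wild-type cells, 1 bar per way of fitting the data. The bars run from 123 calls without high-density library 2 to 4946 with total counts only, where 4822 lie on the higher side.

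Immediate-early genes were lower in low-density cells. This list held transcription factors of the AP-1, EGR and NR4A families with the phosphatases and RNA-binding proteins that shut the response off. All 23 members had values below 0 with TMM, from -2.75 to -0.11. Of the 23, 9 fell, 0 rose, and the median log2 fold change was -1.32, beside 0.10 for all genes. With total counts only the median was -0.74, 19 of 23 values were below 0 and 7 of the 9 still fell, Fos, Junb, Atf3, Nr4a1, Nr4a3, Dusp1 and Zfp36, while Egr2 and Ier2 did not pass. The summed level was 22518 and 14724 CPM in the high-density and 6454 and 8665 CPM in the low-density libraries. High-density library 2 was the highest of the 4 for 20 of these 23 genes. The list had 1 call, Dusp1, without high-density library 2, with a median of -0.82, and again 1, Dusp1, without low-density library 2. It had 14 calls without high-density library 4 and 5 without low-density library 4.

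Fos, a subunit of the AP-1 transcription factor (ENSMUSG00000021250, GRCm38 chromosome 12, 85473890 to 85477273, plus strand), had levels of 957, 340, 82.5 and 125 CPM. Both high-density libraries lay above both low-density ones, and high-density library 2 lay far above the other. The log2 fold change was -2.64 ± 0.59 (SE; edgeR adjusted p = 0.0341), and -1.71 without high-density library 2. Dusp1 (ENSMUSG00000024190, chromosome 17, 26505590 to 26508519, minus strand), a phosphatase that inactivates MAP kinases, had levels of 5268, 4257, 1591 and 1740 CPM. Here the libraries of each density lay close together. Dusp1 fell by 1.52 ± 0.20 on the log2 scale (edgeR adjusted p = 0.00603), and was called in every fit that left out 1 wild-type library. Nr4a1, an orphan nuclear receptor (ENSMUSG00000023034, chromosome 15, 101266846 to 101274792, plus strand), lay at 1051, 663, 283 and 332 CPM, a log2 fold change of -1.48 ± 0.25 (edgeR adjusted p = 0.0122). Its groups did not overlap. Junb, an AP-1 subunit (ENSMUSG00000052837, chromosome 8, 84974484 to 84978718, minus strand), lay at 2728, 1886, 737 and 973 CPM (-1.43 ± 0.23, edgeR adjusted p = 0.0111). Zfp36, which encodes tristetraprolin, a protein that speeds the decay of cytokine mRNAs, lay at 2740, 1238, 564 and 618 CPM (-1.75 ± 0.34, edgeR adjusted p = 0.0181). Fosb had the lowest value of the list but did not pass, since its level of 214 CPM in high-density library 2 stood beside 23.4, 10.7 and 24.6 CPM in the other 3.

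Promoter sequences of Fos, Dusp1, Nr4a1 and Junb are shown because these genes were lower under both scalings and each holds the same short element. They come from RefSeq (GRCm38.p6) and run 5′ to 3′ on the gene's own strand, 150 bases each, ending 1 base before the RefSeq start for Fos, Nr4a1 and Junb and 48 bases before it for Dusp1, where the gene as placed in the deposited files begins earlier. Capitals mark TGACG or its reverse complement CGTCA, the half-site of the cyclic AMP response element (CRE), and the full element TGACGTCA. The windows are chr12:85473740-85473889 for Fos, chr17:26508520-26508669 for Dusp1, chr15:101266696-101266845 for Nr4a1 and chr8:84978749-84978898 for Junb.
Fos: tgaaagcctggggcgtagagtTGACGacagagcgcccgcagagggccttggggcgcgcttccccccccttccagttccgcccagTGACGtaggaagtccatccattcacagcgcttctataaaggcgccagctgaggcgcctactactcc
Dusp1: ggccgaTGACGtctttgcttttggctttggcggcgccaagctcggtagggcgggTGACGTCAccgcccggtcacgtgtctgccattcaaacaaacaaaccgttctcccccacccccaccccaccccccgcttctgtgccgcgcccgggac
Nr4a1: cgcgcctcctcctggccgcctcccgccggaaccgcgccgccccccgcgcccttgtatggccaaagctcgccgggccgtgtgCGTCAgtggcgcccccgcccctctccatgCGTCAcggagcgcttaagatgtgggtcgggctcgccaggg
Junb: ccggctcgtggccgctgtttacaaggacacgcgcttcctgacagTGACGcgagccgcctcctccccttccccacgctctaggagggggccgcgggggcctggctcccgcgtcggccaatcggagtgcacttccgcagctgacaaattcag

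In the 250 bases before the start, the half-site on either strand began 129 and 66 bases before the start of Fos, 106 before that of Junb, 7 before that of Atf3, and at 4 places each in Nr4a1 and Nr4a3. Dusp1 held the full element, which contains the half-site on both strands, 143 bases before its start. Zfp36 held no half-site but a CArG box, the site of serum response factor, 58 bases before its start. Of the 7 genes lower under both scalings, 6 held a half-site. Of the other 16 list members, 12 had a RefSeq promoter and 7 of those held one, counting any of their annotated starts. Among all 32851 RefSeq promoters, 17.8% held the half-site, 1.55% the full element and 1.47% a CArG box. These matches describe the letters in the windows and show no binding, and a gene with several annotated starts has more windows in which to match.

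Regulators and targets of NF-kB, the transcription factor released when IkB proteins are degraded, were lower in low-density cells. Of 21 measured members, 13 fell and 0 rose, with a median of -0.72 and all values below 0. With total counts only the median was -0.15, 18 values were below 0 and 3 fell, Nfkbid, Ier3 and Ptgs2. The 100 most abundant genes had medians of -0.74 with TMM and -0.17 with total counts only, and the next 900 of -0.55 and 0.02. Ptgs2, which encodes the inducible cyclooxygenase, lay at 2109, 1344, 412 and 587 CPM (-1.79 ± 0.26, edgeR adjusted p = 0.00810). Ier3, a stress-induced survival factor, lay at 1811, 1702, 532 and 761 CPM (-1.44 ± 0.22, edgeR adjusted p = 0.00886). In neither gene did the densities overlap. Nfkbid, an atypical nuclear IkB protein, lay at 978, 570, 252 and 329 CPM (-1.42 ± 0.28, edgeR adjusted p = 0.0199). Birc3, an inhibitor of apoptosis and ubiquitin ligase, fell by 0.94 ± 0.19 (edgeR adjusted p = 0.0194) but was at -0.37 with total counts only. The list had 0 calls without high-density library 2 and 0 without low-density library 2, with medians of -0.73 and -0.64, and 3 without low-density library 4.

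Cytokines and chemokines split by gene. Of 24 measured, 7 fell and 3 rose, and the median was -0.60 (-0.04 with total counts only, where 4 fell and 5 rose). The 7 that fell were Il1b, Il1rn, Osm, Csf1, Cxcl2, Ccl3 and Ccl4, whose levels in high density lay between 1107 and 22100 CPM. Cxcl2, a ligand of the receptor Cxcr2 that draws neutrophils, lay at 19700, 22100, 8504 and 9522 CPM (-1.21 ± 0.19, edgeR adjusted p = 0.0104). Ccl3, an inflammatory chemokine, lay at 3321, 4009, 1590 and 1609 CPM (-1.20 ± 0.18, edgeR adjusted p = 0.00950). The libraries of each density lay close together for both. Il1b, the precursor of interleukin-1 beta, lay at 10630, 6199, 2003 and 3343 CPM (-1.66 ± 0.31, edgeR adjusted p = 0.0174), and Osm, a cytokine of the interleukin-6 family, at 1633, 1107, 191 and 480 CPM (-2.03 ± 0.40, edgeR adjusted p = 0.0211). The 4 that also fell with total counts only were Il1b, Osm, Cxcl2 and Ccl3. The 3 that rose were scarce in high-density cells. Ccl5 went from 1.53 and 1.83 to 19.1 and 8.22 CPM, Ccl22 from 1.65 and 12.2 to 141 and 60.5, and Cxcl16 from 8.49 and 15.4 to 28.9 and 22.0. Without high-density library 2 the list had 1 call lower and 0 higher, and without low-density library 2 it had 0 lower and 1 higher. Ccl22 is also a marker on the mature dendritic cell list below and Ccl5 on the natural killer cell list.

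**Figure D3:**
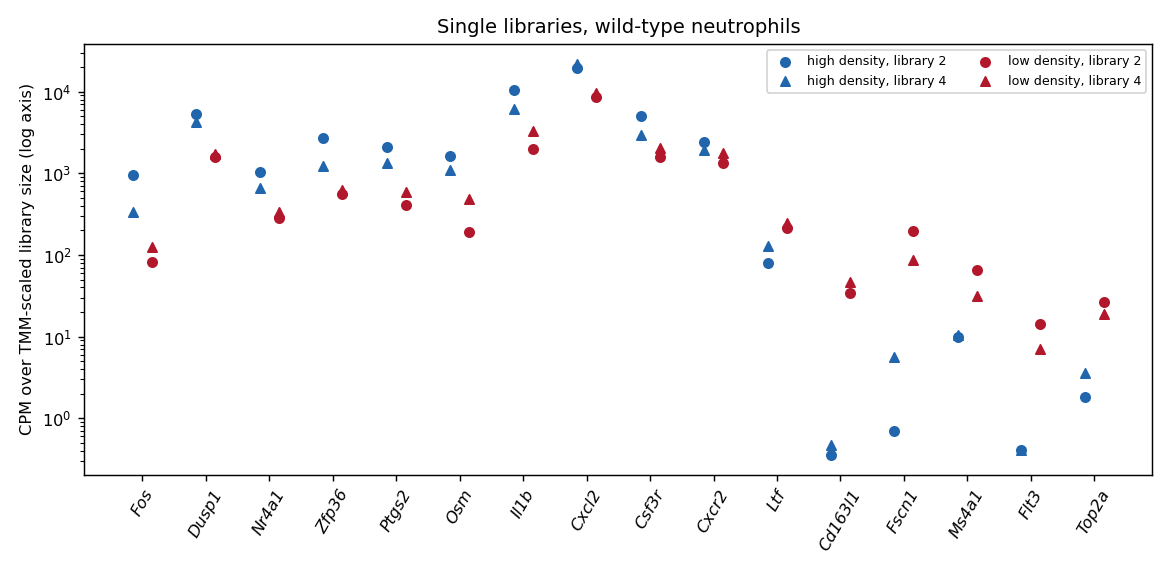
Level of 16 genes in each wild-type library (CPM over TMM-scaled library size, log axis), with blue for high density, red for low density, circles for libraries 2 and triangles for libraries 4. From Fos to Cxcr2 the blue points lie above the red ones, Fos most widely spread at 340 to 957 CPM in high density, and from Ltf to Top2a the red points lie above the blue ones.

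Genes used in reports on suppressive neutrophils were called lower or did not pass, and none was called higher. Of 12 measured, 6 fell (Ptgs2, Arg2, Nos2, Cd84, Wfdc17 and Tgfb1), with a median of -0.74. With total counts only 3 fell (Ptgs2, Arg2 and Nos2), with a median of -0.17. The medians of the 100 most abundant genes were also -0.74 and -0.17, and those of the next 900 were -0.55 and 0.02. Arg2, the mitochondrial arginase, lay at 519, 511, 201 and 283 CPM (-1.09 ± 0.21, edgeR adjusted p = 0.0170). Nos2, the inducible nitric oxide synthase, lay at 71.4, 75.0, 31.1 and 32.0 CPM (-1.22 ± 0.21, edgeR adjusted p = 0.0129). For both, the libraries of each density lay close together. Cd84, a homophilic adhesion receptor of the SLAM family, fell by 0.76 ± 0.18 (edgeR adjusted p = 0.0305) and was at -0.19 with total counts only. The list had 0 calls without high-density library 2, 0 without low-density library 2, and 3 without either of the libraries numbered 4. Outside the lists, Acod1, which makes itaconate, lay at 13220, 10860, 3517 and 5069 CPM (-1.49 ± 0.29, edgeR adjusted p = 0.0176), and Nlrp3, the inflammasome sensor, at 3489, 2978, 1099 and 1696 CPM (-1.21 ± 0.23, edgeR adjusted p = 0.0181). Both also fell with total counts only (-0.93 and -0.65).

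All 22 measured genes of the mature neutrophil list had values below 0 with TMM, and their libraries did not overlap between the densities, as was the case for 27.0% of all genes in that direction (62.1% in either, 35.1% with low density higher). Of the 22, 11 fell and the median was -0.83. With total counts only the median was -0.25, 2 fell (Hcar2 and Il1r2), and Cxcr2, Fpr1 and Wfdc21 had values above 0. Of the 100 most abundant genes 41 fell with TMM, and their median was -0.74, or -0.17 with total counts only. The summed level of the mature neutrophil list was 94740 and 88028 CPM in high density and 43391 and 58266 CPM in low density. Hcar2, a receptor for butyrate and nicotinic acid, lay at 4873, 3965, 1525 and 1937 CPM (-1.35 ± 0.26, edgeR adjusted p = 0.0173). Il1r2, the decoy receptor for interleukin-1, lay at 2518, 2239, 795 and 1254 CPM (-1.22 ± 0.26, edgeR adjusted p = 0.0234). Csf3r, the receptor for granulocyte colony-stimulating factor, lay at 5043, 2936, 1605 and 2035 CPM (-1.13 ± 0.29, edgeR adjusted p = 0.0365). High-density library 2 was the outlying one for Csf3r, whose change was -0.69 without it and -0.56, not called, with total counts only. S100a9 lay at 27060, 27250, 12190 and 18020 CPM and did not pass (-0.85 ± 0.28, edgeR adjusted p = 0.0696). The list had 0 calls without high-density library 2, 8 without high-density library 4, 0 without low-density library 2 and 2 without low-density library 4, with medians of -0.69 to -0.999.

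Genes of the specific granule, which are transcribed at the myelocyte stage in the marrow, were not called. Of 13 measured, 0 passed in either direction with TMM, with a median of -0.21. With total counts only 3 rose (Ltf, Camp and Cd177) and the median was 0.32. Under that scaling 32.3% of all genes rose and their median was 0.67, so neither value exceeded that of all genes. The sign of the median also turned on single libraries, from -0.69 without low-density library 4 to 0.12 without low-density library 2. Ltf, which encodes the iron-binding lactoferrin, lay at 79.9, 129, 213 and 247 CPM (1.139 ± 0.37, edgeR adjusted p = 0.0737). Camp, the cathelicidin precursor, lay at 7.42, 13.6, 16.7 and 26.7 CPM (1.04 ± 0.47, edgeR adjusted p = 0.161). In both genes each low-density library lay above each high-density one. Cd177, a surface partner of the integrin Mac-1, overlapped, at 450, 675, 537 and 950 CPM.

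Among receptors for chemoattractants, 2 of 11 fell and 0 rose, with a median of -0.55 (0.01 with total counts only, where Cxcr4 fell and C3ar1 rose). Cxcr4, which retains neutrophils in the marrow and marks aged ones, lay at 637, 320, 147 and 160 CPM (-1.64 ± 0.31, edgeR adjusted p = 0.0171), and -1.06 without high-density library 2. Fpr2, a receptor for formylated peptides, fell by 0.67 ± 0.19 (edgeR adjusted p = 0.0492), with a value of -0.11, not called, with total counts only. The receptor list had 0 calls without high-density library 2, 0 without low-density library 2 and 0 without low-density library 4. Cxcr2, the main receptor for Cxcl2, lay at 2433, 1908, 1336 and 1770 CPM and did not pass (-0.48 ± 0.24, edgeR adjusted p = 0.192; 0.082 with total counts only). Among 13 transcription factors of granulocytes, 4 fell (Cebpb, Gfi1, Runx1 and Mxd1), and Myc, which drives growth and division, rose from 3.65 and 5.25 to 13.5 and 14.3 CPM (1.64 ± 0.25, edgeR adjusted p = 0.00871). With total counts only none of those 4 passed, and Myc (2.21) and Irf8 rose. None of the 13 passed without high-density library 2, and the 4 falls were also lost without either low-density library. Of 20 interferon-stimulated genes 1 fell (Gbp2, a guanylate-binding GTPase), a share near the 4.15% of all genes called lower. The list median was -1.02, and -0.46 with total counts only, where 0 fell and Bst2 rose. High-density library 2 was the highest of the 4 for 17 of the 20. Rsad2, which encodes the antiviral protein viperin, lay at 473, 153, 95.2 and 105 CPM (-1.65 ± 0.47, edgeR adjusted p = 0.0556). The median of that list was -0.38 and 0 fell without high-density library 2, 0 fell without low-density library 2, and 9 fell without high-density library 4. Of 20 genes of glycolysis 1 fell (Hk1, hexokinase 1, at 193, 190, 125 and 111 CPM), a share near the 4.15% of all genes called lower, with a median of -0.45. With total counts only 0 fell and the median was 0.13, and 0 fell without high-density library 2 or without either low-density library.

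**Figure D4:**
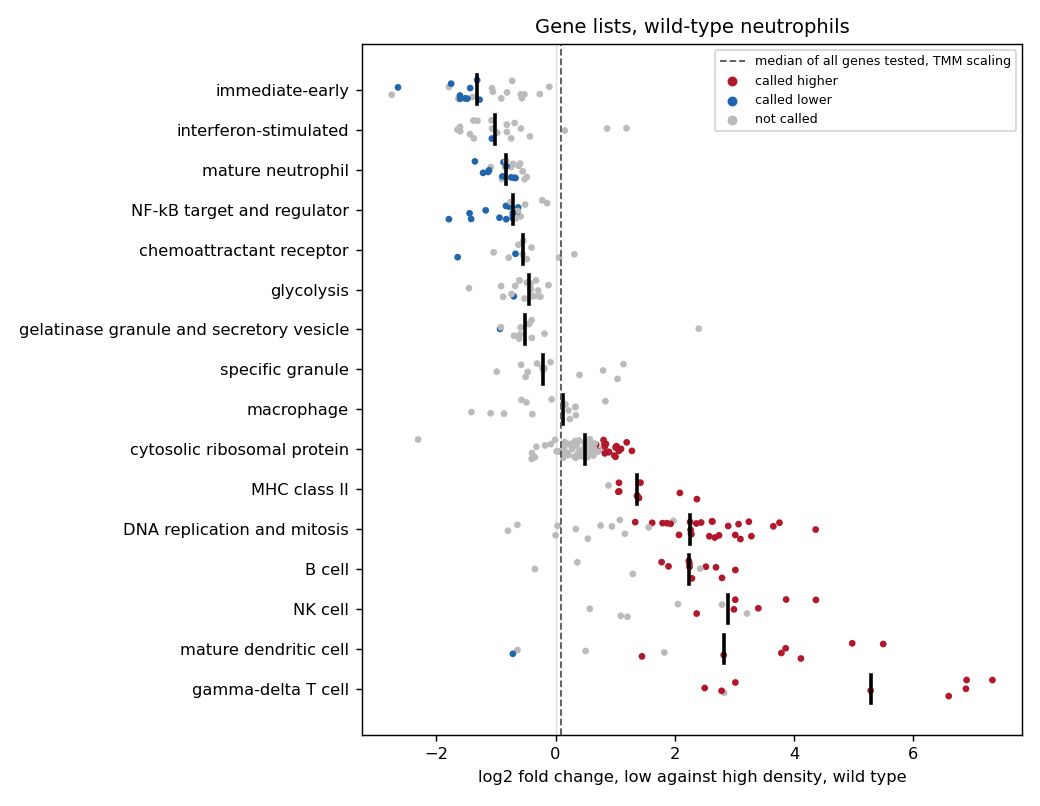
Log2 fold change of low against high density for each measured member of 16 gene lists (points; red called higher, blue called lower, grey not called), with the list median as a black bar and the median of all genes tested as a dashed line. Medians run from -1.32 for immediate-early genes to 5.29 for gamma-delta T cell genes, and lie within 0.5 of 0 for the specific granule, macrophage, glycolysis and ribosomal protein lists.

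Marker genes of lymphocytes and dendritic cells were among the largest rises. Some, among them Cd163l1 and Icos, passed the filter on low counts only through the low-density libraries, so their direction was largely set in advance. Of the 9 measured genes on the list for gamma-delta T cells, which are tissue T cells with a gamma-delta antigen receptor, 8 rose and the median was 5.29. Blk, a kinase that B cells also carry, is on this list and on the B cell list. The 9 summed to 3.48 and 4.96 CPM in high density and to 95.8 and 112 CPM in low density. Trdc, the constant region of the delta chain, lay at 0.236, 0.0590, 15.4 and 20.8 CPM (6.88 ± 0.50, edgeR adjusted p = 0.000526). Cd163l1, a scavenger receptor of interleukin-17-producing gamma-delta T cells (ENSMUSG00000025461, chromosome 7, 140218267 to 140231145), lay at 0.354, 0.472, 34.1 and 46.8 CPM (6.60 ± 0.31, edgeR adjusted p = 4.70e-05). Both low-density libraries lay alike and far above both high-density ones. Il17a, the cytokine these cells make, had 2 counts in the high-density libraries together and 126 in the low-density ones, a ratio of 42.5 (95% interval 11.5 to 355). This interval and the one for a globin below are exact conditional ones and cover counting error only. Tcrg-C1 and Tcrg-C2, constant regions of the gamma chain that are near-identical copies and may share reads, lay at 0 to 0.118 CPM in high density and at 8.11 and 14.3 (Tcrg-C1) and 2.72 and 6.26 (Tcrg-C2) in low density. The list had 6 calls without high-density library 2, 9 without high-density library 4, 6 without low-density library 2 and 7 without low-density library 4.

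Of 14 measured genes of T cells in general, 4 rose (Cd3e, Cd3g, Lef1 and Icos) and 0 fell, with a median of 1.34. This list had 1 call in each of the 4 fits without 1 wild-type library. Cd3e, a chain of the antigen receptor complex, lay at 0.648, 0.177, 3.12 and 4.11 CPM (3.11 ± 0.65, edgeR adjusted p = 0.0219). Icos, a costimulatory receptor, lay at 0.177, 0.413, 7.98 and 11.9 CPM (5.05 ± 0.47, edgeR adjusted p = 0.00205). Cd4 lay at 0 to 0.413 CPM and Cd8a at 0.236 to 0.851 CPM in all 4 libraries, and neither passed. Of 12 genes of natural killer cells 6 rose, with a median of 2.89 and summed levels of 5.07 and 4.25 against 33.1 and 23.3 CPM. Of these, 1 passed without high-density library 2, 3 without low-density library 2 and 4 without low-density library 4. Klrk1, the activating receptor NKG2D, which gamma-delta T cells also carry, lay at 0.118, 0.295, 3.32 and 2.86 CPM (3.87 ± 0.50, edgeR adjusted p = 0.00516). The natural killer receptor Ncr1 had levels of 0 to 0.203 CPM and did not pass.

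Most genes of B cells rose. Of 14 measured, 10 rose and 0 fell, with a median of 2.25, and the summed level was 154 and 143 CPM in high density and 1215 and 490 CPM in low density. Ms4a1, which encodes CD20, lay at 9.84, 10.51, 65.1 and 31.5 CPM (2.25 ± 0.33, edgeR adjusted p = 0.00886). Cd22, an inhibitory coreceptor, lay at 9.66, 10.7, 98.2 and 43.1 CPM (2.79 ± 0.40, edgeR adjusted p = 0.00871). In both, low-density library 2 lay above low-density library 4, and the high-density libraries lay close together. Ighm, the constant region of immunoglobulin M, lay at 86.4, 69.6, 735 and 272 CPM. The B cell list had 1 call without high-density library 2, with a median of 2.18, and 6 without low-density library 2. Of 6 genes of B-1 cells, the self-renewing B cells of the peritoneal cavity, 3 rose, Zbtb32, Bhlhe41 and Zcwpw1. Of 5 measured genes of plasma cells 3 rose, Jchain, Irf4 and Mzb1, while Sdc1, which encodes CD138, lay at 8.13, 11.9, 16.0 and 19.7 CPM and did not pass with TMM (adjusted p of edgeR 0.0120 with total counts only). Neither the B-1 nor the plasma cell list had a call without high-density library 2.

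Genes of dendritic cells, which take up antigen and present it to T cells, rose in 3 of 10 members of a general list (Flt3, Zbtb46 and Batf3) and in 7 of 11 members of a list for mature, migrating cells. Relb, on the latter list and also an NF-kB member, fell with TMM and did not pass with total counts only (-0.15). Fscn1, the actin-bundling protein of mature dendritic cells (ENSMUSG00000029581, chromosome 5, 142960343 to 142973185), lay at 0.707, 5.55, 196 and 87.0 CPM (5.50 ± 0.86, edgeR adjusted p = 0.0170). Both low-density libraries lay above both high-density ones, and high-density library 4 lay well above library 2. Ccr7, the receptor that guides them to lymph nodes, lay at 1.30, 6.85, 93.4 and 48.0 CPM (4.12 ± 0.83, edgeR adjusted p = 0.0293). Flt3, a growth factor receptor of dendritic cell precursors and conventional dendritic cells, lay at 0.413, 0.413, 14.4 and 7.01 CPM (4.68 ± 0.56, edgeR adjusted p = 0.00476). Clec9a and Xcr1, which mark the cross-presenting subset, stayed at 0.365 to 4.604 CPM and did not pass. Of 10 class II genes, whose products present peptide antigen, 9 rose, with a median of 1.37. H2-Aa lay at 40.4, 62.3, 167 and 109 CPM (1.43 ± 0.31, edgeR adjusted p = 0.0240), and Ciita, the master transactivator of the class, at 3.42, 2.95, 21.7 and 11.3 CPM (2.37 ± 0.32, edgeR adjusted p = 0.00646). Class II genes had 0 calls without high-density library 2 and 2 without low-density library 2. The mature dendritic cell list had 3 and 2, and the general list 0 and 2.

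Marker lists of other cells had few calls or fell. Of 15 macrophage genes, 0 passed in either direction, with a median of 0.13 and summed levels of 1221 and 1212 against 917 and 821 CPM. The median was 0.71 with total counts only, beside 0.67 for all genes, and -0.18 without high-density library 2. With total counts only C1qc was among the 2 that rose, while 32.3% of all genes rose under that scaling. Adgre1, which encodes F4/80, lay at 167, 181, 113 and 122 CPM, and Csf1r at 471, 319, 230 and 204 CPM. Of 10 monocyte genes Ccr2, a receptor for Ccl2, rose from 18.3 and 10.3 to 48.2 and 46.2 CPM (1.72 ± 0.27, edgeR adjusted p = 0.00983), Nr4a1 and Ace fell, and Ly6c2 did not pass. The falls of that list did not pass without either of the libraries numbered 2. Of 8 eosinophil genes 4 fell, Ear1, Ear6, Prg2 and Siglecf, of which the former pair also fell with total counts only, and Il5ra, which B-1 cells also carry, rose. Leaving out high-density library 2 gave 1 call on that list, and leaving out low-density library 2 gave 0. Of 10 mesothelial and fibroblast genes 0 were called, and the summed levels were 27.2, 124, 57.5 and 288 CPM. Both libraries numbered 4 lay above both libraries numbered 2, and within each number the low-density library lay above the high-density one. The list median of 1.42 was -0.37 without low-density library 4. The part of these other cell types, and of the spread between the libraries of a group, in the changes of neutrophil genes was not tested.

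Transcripts of red cells gave the largest falls. All 5 measured genes of the erythroid list fell under both scalings, with a median of -7.16. They passed the filter on low counts only through the high-density libraries, so their shared direction was largely set in advance. They summed to 62.8 and 226 CPM in high density and to 0.527 and 1.49 CPM in low density, so that high-density library 4 held the most. The list had 1 call without low-density library 2 and 5 in the other fits without 1 wild-type library. Hbb-bs, an adult beta globin, had 522, 2052, 5 and 20 counts (-7.24 ± 0.93, edgeR adjusted p = 0.00991). Hba-a1 and Hba-a2 encode the same alpha globin, and reads may have been split between them. The beta globin Hbb-bt had 315 counts in high density together and 3 in low density, a ratio of 155 with a 95% interval of 52.7 to 758. Slc4a1, the anion exchanger of the red cell membrane, had at most 1 count in a library.

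Genes of DNA replication and mitosis rose from low levels. Of 38 measured, 26 rose and 0 fell, with a median of 2.26, and the sums were 173 and 213 CPM in high density and 394 and 313 CPM in low density. Top2a, the topoisomerase of dividing cells, lay at 1.83, 3.60, 26.8 and 18.8 CPM (3.07 ± 0.41, edgeR adjusted p = 0.00681). Pole, the catalytic subunit of DNA polymerase epsilon, lay at 0.295, 0.295, 4.74 and 3.37 CPM (3.76 ± 0.41, edgeR adjusted p = 0.00315), and Mcm6, a subunit of the replicative helicase, at 1.83, 3.01, 19.7 and 12.8 CPM (2.74 ± 0.34, edgeR adjusted p = 0.00496). Pole, Mcm6 and the primase Prim1 were called in each fit that left out 1 wild-type library. The list had 3 calls without high-density library 2 and 11 without low-density library 2.

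Protein synthesis and folding genes changed in part. Of 84 genes of cytosolic ribosomal proteins 20 rose and 0 fell, with a median of 0.49, and with total counts only 76 rose, with a median of 1.07. Rpl10a lay at 25.9, 32.1, 78.7 and 62.2 CPM (1.28 ± 0.21, edgeR adjusted p = 0.0111). These genes have many processed pseudogenes that can share their reads. The ribosomal list had 0 calls without high-density library 2, 0 without low-density library 2 and 6 without low-density library 4. Among chaperones of the endoplasmic reticulum Pdia4, a disulfide isomerase, rose from 22.1 and 29.6 to 75.3 and 63.3 CPM (1.42 ± 0.20, edgeR adjusted p = 0.00645), as did Sdf2l1, while Hspa5, which encodes BiP, had a value of -0.56 with TMM and 0.0098 with total counts only. Of 14 chaperones 2 rose with TMM and 8 with total counts only. Of 10 heat shock genes Hsph1, Hspd1 and Hspe1 rose, and 0 of them passed without high-density library 2 or without low-density library 2.

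Beyond these lists, the 12 largest rises were taken over genes that reached 5 CPM on average in either density. Antigen receptor, predicted, pseudogene, mitochondrial and histone names were left out, so Trdc and Tcrg-C1, which rose more than Cd163l1, were not ranked. The 12 held Cd163l1 and Icos of the T cell lists and Fscn1, Cacnb3 and Flt3 of the dendritic cell lists. Among the others were Adcy6, Calca, Cxcr6, Strip2, Serpinb6b and Ramp3. Adcy6, an adenylyl cyclase that makes cyclic AMP, lay at 0.177, 0.885, 36.5 and 16.6 CPM (5.63 ± 0.69, edgeR adjusted p = 0.00645). Calca, which encodes calcitonin and the neuropeptide CGRP, lay at 0, 0.354, 5.76 and 6.69 CPM (5.09 ± 0.72, edgeR adjusted p = 0.00747), and Ramp3, a partner of the calcitonin receptor-like receptor, at 0.295, 0.767, 15.4 and 11.2 CPM (4.63 ± 0.51, edgeR adjusted p = 0.00385). Among the largest falls after the globins were Chrna2, a subunit of the nicotinic acetylcholine receptor, at 9.78, 5.61, 0.851 and 0.626 CPM (-3.37 ± 0.39, edgeR adjusted p = 0.00407), and Best1, a chloride channel, at 35.7, 21.7, 4.78 and 4.03 CPM (-2.70 ± 0.29, edgeR adjusted p = 0.00315). Both were called in each fit without 1 wild-type library. Tagap, a GTPase-activating protein, and Edn1, the precursor of endothelin-1, fell by 2.34 ± 0.38 and 2.20 ± 0.53 (edgeR adjusted p = 0.0125 and 0.0368). Tiparp, a target of the aryl hydrocarbon receptor, lay at 679, 726, 210 and 221 CPM (-1.71 ± 0.24, edgeR adjusted p = 0.00683), and Gadd45a, a stress-response gene, at 569, 469, 179 and 199 CPM (-1.46 ± 0.19, edgeR adjusted p = 0.00516). The libraries of each density lay close together in both.

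Some falls were in features whose reads can come from ribosomal or other non-coding RNA. Lars2, Mir6236 and Gm42418 lay at 191, 16.1 and 316 CPM in high-density library 2, at 80.0, 9.50 and 133 CPM in library 4, and at 1.62 to 64.4 CPM in the low-density libraries. Rn7sk, a small nuclear RNA, lay at 4.596, 1.65, 0.122 and 0.431 CPM. All 4 fell under both scalings and were highest in high-density library 2, as were Fos and most immediate-early genes. The part of RNA quality or of library preparation in these results was not tested.

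Hrh2, the H2 receptor itself (ENSMUSG00000034987, chromosome 13, 54192129 to 54236180), lay at 118, 41.3, 22.5 and 32.5 CPM. Each high-density library lay above each low-density one, but the spread between the high-density libraries was wide and the change did not pass (-1.53 ± 0.54, edgeR adjusted p = 0.0984). Its value was -0.58 when high-density library 2 was left out. Hdc, which makes histamine, lay at 6679, 5767, 2465 and 3946 CPM (-0.96 ± 0.31, edgeR adjusted p = 0.0670; -0.40 with total counts only).

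The same contrast in H2R-deficient cells, from other libraries, called 8044 genes (54.0%), 4478 higher (30.0%) and 3566 lower (23.9%). The 2 contrasts share the estimate of spread, the filter on low counts and the TMM scaling, all made on the 8 libraries together. They are therefore not fully separate. Of the 1888 genes called in wild type, 1877 had the same sign in H2R-deficient cells (99.4%, beside 83.5% of all genes). Of the 1888, 1766 were called in both, 93.5% of the wild-type calls and 22.0% of the H2R-deficient ones, and 1765 of them had the same sign. The medians of wild-type and then of H2R-deficient cells were -0.83 and -1.46 for mature neutrophil genes, -1.32 and -1.08 for immediate-early genes, 2.25 and 3.84 for B cell genes and 5.29 and 5.16 for gamma-delta T cell genes. The list of general T cell genes had medians of 1.34 and -0.33, and the specific granule list of -0.21 and -1.36. Ltf was at 1.139 and -0.60, Camp at 1.04 and -0.50, and Cd177 at 0.40 and -1.40. Tested directly, the difference between the genotypes passed for 0 of 14909 genes (0.0%; edgeR adjusted p of 0.0906 at the lowest), with 3150 at an unadjusted p under 0.05. DESeq2 called 946 differences and limma-voom 0. For Cxcr2, at -0.48 and -1.85, the difference was 1.37 ± 0.34 (edgeR adjusted p = 0.0931), and for Ltf the adjusted p of edgeR was 0.121.

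**Figure D5:**
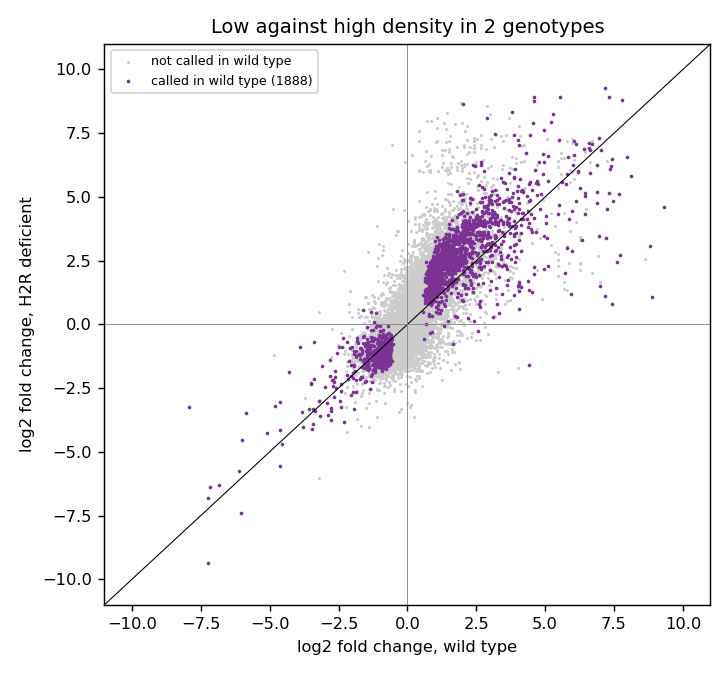
Log2 fold change of low against high density in H2R-deficient cells (vertical axis) against that in wild-type cells (horizontal axis), 1 point per gene, with the 1888 genes called in wild type in purple and the line of equality in black. Of the 1888 purple points, 1877 lie where both values have the same sign.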

How the data were processed

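The authors deposited raw read counts per gene for each of 8 libraries, not normalized, in the layout of featureCounts, per the file headers. Per the submitters' processing notes the genome build was GRCm38 and the tools included STAR 2.5.2b, Subread 1.5.2 with featureCounts, Trimmomatic 0.36 and bcl2fastq 2.17.1.14. The sources used here do not give the strand setting, the treatment of reads with several hits or the annotation release, so overlapping genes and near-identical copies may exchange reads. Of 49315 identifiers, 48970 matched a symbol in GENCODE M21. Library sizes were 19862716 to 24199215 counts, and replicates differed beyond sampling noise.

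Counts of all 8 libraries were fitted with edgeR 4.0.16 (R 4.3.3; filterByExpr, TMM, robust quasi-likelihood, 1 mean per group, 4 residual degrees of freedom, Benjamini-Hochberg adjustment over 14909 genes, called under 0.05). The test was run on simulated counts, where it gave no call of the wrong sign. It recovered 14% of changes of 2-fold and 64.7% of changes of 4-fold. Of 263 calls 27 were false, a share above the threshold set. The simulation changed 100 genes at each fold and kept all others equal between the wild-type densities, unlike these data. The share of false calls among those given here at 0.05 is therefore not known and may also exceed that threshold. A standard error is the size of the log2 fold change divided by the square root of F. DESeq2 1.42.0 and limma 3.58.1 were alternatives, as were other scalings, other filters, the wild-type libraries alone, a replicate block and leaving out each library, where the lone library of its group is assumed to vary like the other groups. With 2 libraries a group no exact rank or permutation test of 1 value can pass 0.05.

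Gene lists and comparisons were chosen with earlier results of these data known. Genes named are first the 12 largest rises and 12 largest falls among called, non-overlapping genes of at least 5 CPM in a group. This ranking left out antigen receptor, predicted, pseudogene, mitochondrial and histone names. Also named are up to 4 members of lowest adjusted p of each list described, the first 2 of each cell type list, Hrh2 and Hdc. All others, such as Zfp36, Osm, Ltf, Acod1, Tiparp and Il17a, were chosen after their values were seen. List members that passed are named where a list had few. Some genes that this rule selects are not reported here.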

Additional observations from a re-analysis of the deposited data

How the results depend on the processing

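Wild-type calls (1888, with 1269 higher and 619 lower) moved by over 1.5 times under these settings. The 4 wild-type libraries alone gave 608 (443 higher, 165 lower), no filter on low counts 3361 (2190 and 1171) and total counts only 4946 (4822 and 124). DESeq2 called 1426 lower. Leaving out 1 library gave 123 to 1724 wild-type calls, 86 to 1226 higher and 18 to 693 lower. In H2R-deficient cells total counts only gave 7690 higher and 387 lower, and leaving out 1 library gave 5394 to 8341 calls, 3331 to 4641 higher and 2063 to 3700 lower. The difference between genotypes (0 calls) had 946 with DESeq2 (358 higher, 588 lower), 1210 without a filter (309 and 901), 635 with total counts only (13 and 622), and 0 to 3 without 1 library (0 higher, 0 to 3 lower). The cause was not tested. Fewer libraries leave fewer residual degrees of freedom, to the same extent in each fit without 1 library.

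The library numbers are shared by the densities, but the labels do not say what a number marks, and a wild-type pair is 1 of only 2. Deviations from the group means correlated at 0.155 within the wild-type numbers and at 0.326 within the H2R-deficient ones. A fit with the replicate block called 2621 wild-type genes, with 1648 higher and 973 lower, and 28 differences between genotypes (16 higher, 12 lower). With it 8 of 10 mesothelial and fibroblast genes were called higher, against 0 without it, 3 of 13 specific granule genes higher and 1 lower, against 0, and Xist (1.23) and Hrh2 (-1.37) were called.

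Of the 185 named genes, leaving out high-density library 2 ended the call of 92 and high-density library 4 that of 19, and for the low-density libraries 2 and 4 the numbers were 81 and 40. Named genes that changed sign, none of them called, were Cd68 (0.085), Cxcr2 (0.082), Dnajb9 (0.0069), Hspa5 (0.0098), Lcn2 (0.090), Clec9a (0.055), Cma1 (0.30), Cpa3 (0.25), Ctsc (0.16), Fpr1 (0.0071), Wfdc21 (0.043) and Ly6c2 (0.32) with total counts only. Without 1 library Ly6c2 ranged from -0.55 to 0.024, the latter without low-density library 2. Cd177 ranged from -0.057 to 0.76, Cd3d from -0.17 to 0.62, Prtn3 from -0.10 to 0.41, Xcr1 from -0.61 to 1.32, Upk3b from -0.76 to 3.95 and Wt1 from -0.15 to 6.06, with the lowest values without low-density library 4. Cma1 ranged from -0.86 to 0.68 and Cpa3 from -1.76 to 0.37. A gene with 0 counts in a library could have reached 0.124 to 0.151 CPM there (3 counts, over all gene counts). These bounds use raw totals, so they are not on the TMM-scaled CPM of the levels given above.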

Other observations

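Xist, expressed from the inactive X chromosome, lay at 91.6, 280, 436 and 326 CPM in high-density libraries 2 and 4 and low-density libraries 2 and 4, and transcripts of the Y-linked Ddx3y, Uty, Kdm5d and Eif2s3y had at most 1 count in any of these libraries. Xist did not pass (1.04 ± 0.43, edgeR adjusted p = 0.137), but its value moved with single libraries and with the fit. It was 0.45 without high-density library 2, 2.06 and called without high-density library 4, and called with total counts only (1.61), with no filter on low counts (1.08) and with a replicate block (1.23). High-density library 2, the lowest of the 4 for Xist, was the highest for Fos, Hrh2 and Rsad2.

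Some members of lists that the report does not describe changed too. Mcl1, an anti-apoptotic member of the BCL2 family, lay at 5716, 4276, 2348 and 2865 CPM (-0.94 ± 0.23, edgeR adjusted p = 0.0329; -0.37 and not called with total counts only), the 1 of 11 measured family members that fell. Of 7 measured genes of type 2 innate lymphoid cells Gata3 and Il5 rose. Gata3, a transcription factor of T cells and innate lymphoid cells, went from 0.413 and 0.472 to 2.999 and 5.21 CPM (3.20 ± 0.46, edgeR adjusted p = 0.00730). Of 4 measured genes on a list for plasmacytoid dendritic cells 3 rose, among them Spib (1.41 and 3.78 to 19.1 and 9.94 CPM) and Ccr9 (0.354 and 0.826 to 6.00 and 2.43 CPM), while Siglech, a defining marker, did not pass the filter on low counts, at 0.0590 to 0.766 CPM. Of 7 measured mast cell genes Kit was called lower (31.8, 33.6, 14.9 and 19.3 CPM; -0.93), but not with total counts only (-0.37) nor in any of the 4 fits without 1 wild-type library, and Cpa3 and Cma1 lay at 0.509 to 3.78 CPM.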
